A study of Rattus norvegicus with 4 samples.

Results

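The protein synthesis machinery examined here comprised translation initiation and elongation factors, with a few of their regulators and modifiers, and the aminoacyl-tRNA synthetases. Members were taken by gene symbol: every probe set with 1 symbol that begins with Eif or Eef and a digit, except the Eif2ak kinases, and every symbol that names a synthetase by the ending ars, ars1 or ars2, or as Eprs. That gave 67 of 14824 single-symbol probe sets, standing for 66 genes, since Eif4a1 had 2 probe sets. By role there were 32 probe sets of initiation factors, 9 of elongation factors and their modifiers, 14 of cytosolic synthetases and 11 of mitochondrial synthetases. The last one was the processed pseudogene Eef1a1-ps7. All were measured in fibroblasts from tail tendons of Lewis rats (retired breeders), held in gels of type I collagen. The cells grew for 2 days with 10% fetal bovine serum, then received 10% clot releasate of PRP or of PPP in serum-free medium for 24 hours. PRP and PPP are read here as platelet-rich and platelet-poor plasma, which the labels do not spell out. There were 2 Affymetrix arrays per product and no untreated array among those analysed, so a difference does not show which product moved a gene. The labels do not say whether replicates were separate animals or cultures, nor who gave the plasma, so p-values measure only the spread between these arrays.

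Protein synthesis starts when initiation factors load the small ribosomal subunit with the initiator tRNA and bring it to the cap of a messenger RNA. Elongation factors then deliver each charged tRNA and move the ribosome along the message. Aminoacyl-tRNA synthetases charge each tRNA with its amino acid; in most cases 1 nuclear gene encodes the cytosolic enzyme and another the mitochondrial one, while Gars1 and Kars1 encode both forms. In mouse and human cells, phosphorylation of eIF2 slows initiation and raises the transcription factor ATF4, which is known to activate genes of amino acid synthesis, amino acid transport and many cytosolic synthetases. ATF4 acts there through the C/EBP-ATF response element. In fibroblasts, growth factors are known to act on this machinery mainly through mTOR and through the cap-binding protein eIF4E.

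The promoter stretches that bear on these genes come from RefSeq windows on the GRCr8 build, which run from 250 bases before to 50 bases after each gene's annotated start. Of the 66 member genes, 59 had a window. The core searched was TGATGNAA on both strands, and it was present in the windows of 6 of 12 cytosolic synthetase genes, 0 of 11 mitochondrial synthetase genes and 1 of 36 factor genes. It was present in 3.27% of 11727 tested genes with a window. A match describes the letters of the window and is not a bound site. The 6 synthetase genes and the factor gene Eif2s2 are shown because they are the members with the core. Each stretch reads along the gene's own strand, ends at or before the start except for that of Yars1, which lies after it, and has the core in capitals as it reads there (TTGCATCA where the core lies on the other strand).
Aars1: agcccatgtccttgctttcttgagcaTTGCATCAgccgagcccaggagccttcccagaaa
Iars1: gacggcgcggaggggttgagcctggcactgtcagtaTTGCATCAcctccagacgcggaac
Nars1: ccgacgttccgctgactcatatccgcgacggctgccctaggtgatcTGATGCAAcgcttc
Mars1: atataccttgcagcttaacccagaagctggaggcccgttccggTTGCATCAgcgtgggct
Tars1: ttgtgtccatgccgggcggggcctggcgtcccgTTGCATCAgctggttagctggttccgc
Yars1: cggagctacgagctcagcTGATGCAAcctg
Eif2s2: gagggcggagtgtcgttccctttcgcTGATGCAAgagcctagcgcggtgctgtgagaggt
They lie at chr19:55908344-55908403 (plus strand) for Aars1, chr17:15193653-15193712 (minus strand) for Iars1 and chr18:60275783-60275842 (minus strand) for Nars1. Those of Mars1, Tars1 and Yars1 are chr7:65023754-65023813 (minus strand), chr2:62114803-62114862 (minus strand) and chr5:146820183-146820212 (plus strand), and that of Eif2s2 is chr3:163855573-163855632 (minus strand). All 7 cores shown read TGATGCAA on one strand. In Iars1, Nars1, Mars1 and Tars1 the core began 24, 14, 17 and 27 bases before the start, and in Aars1 112 bases before it. Aars1 held a second match, TGATGAAA, which began at base 10 after the start.

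Over the whole table, limma called 274 of 14824 probe sets (1.85%) at a Benjamini-Hochberg adjusted p of 0.05, 123 higher with PRP (0.830%) and 151 lower (1.02%); with the arrays centred on their medians the split was 198 and 176. No call had a log2 difference under 0.64 in size. Col1a1, Col1a2, Thy1, Dcn and Thbs4 were the brightest tendon markers, with group means of the log2 values from 8.94 to 10.68. Scx (6.77 with PPP and 6.22 with PRP) and Mkx (7.12 and 6.57) lay lower. Of 10 tendon markers measured, Fmod and Tnmd passed the test, both lower with PRP, and Tnmd stood at 4.46 with PPP and 3.11 with PRP. Of the 10 differences, 7 were negative and 3 positive, with a median of -0.54. Col1a1, Scx, Mkx and Col1a2 were at -0.66, -0.55, -0.55 and -0.53 and did not pass, with PRP arrays below both PPP arrays. Dcn and Pdgfra had differences of 0.56 and 0.55 and did not pass, with PRP arrays above both PPP arrays. Thbs4 was at 0.12, with arrays of the products overlapping. All 6 leukocyte markers measured, with Ptprc and Csf1r among them, had mean levels below 4.11, the median of all tested probe sets, and Tyrobp had the widest difference of them, at -0.87 (adjusted p 0.0559 by limma). The platelet factor gene Pf4 had a log2 difference of 1.85, while Gp9 and Ppbp, the other platelet markers measured, had 0.03 and -0.16. In such bulk samples fewer cells of a type and less RNA per cell cannot be told apart, and the part of other cells in the results was not tested.

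No message of a translation factor or synthetase passed the test between the products. limma called 0 of the 67 members at an adjusted p of 0.05, where 1.85% of all probe sets were called; the smallest adjusted p was 0.0944. At an unadjusted p of 0.05 there were 7 members, 3 with positive and 4 with negative differences, where 16.3% of all probe sets lay (8.53% positive and 7.74% negative). All differences are log2 PRP minus PPP. They ran from -0.42 to 0.62, which is at most 1.53-fold, and 54 of 67 were under 0.25 in size, as were 10938 of all 14824 probe sets. The half-width of the 95% interval of a member's difference, not adjusted for the number of tests, had a median of 0.27. Differences of that size could not be told from 0 even without adjustment. With it, no probe set of the whole table was called at a size under 0.64. A missed threshold therefore does not show equal levels. The 2 PRP arrays lay on 1 side of both PPP arrays in 44 of 67 members. The same held for 46.4% of all probe sets and for 57.8% of the 7412 at or above the median level, where all but 8 of the members lie. With an intensity trend in limma 6 members were called, 3 in each direction, where 5.45% of all probe sets were (3.00% higher and 2.46% lower). These were Yars2, Eif3b and Eif4e, higher with PRP, and Wars1, Aars1 and Eif4ebp1, lower.

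**Figure D1:**
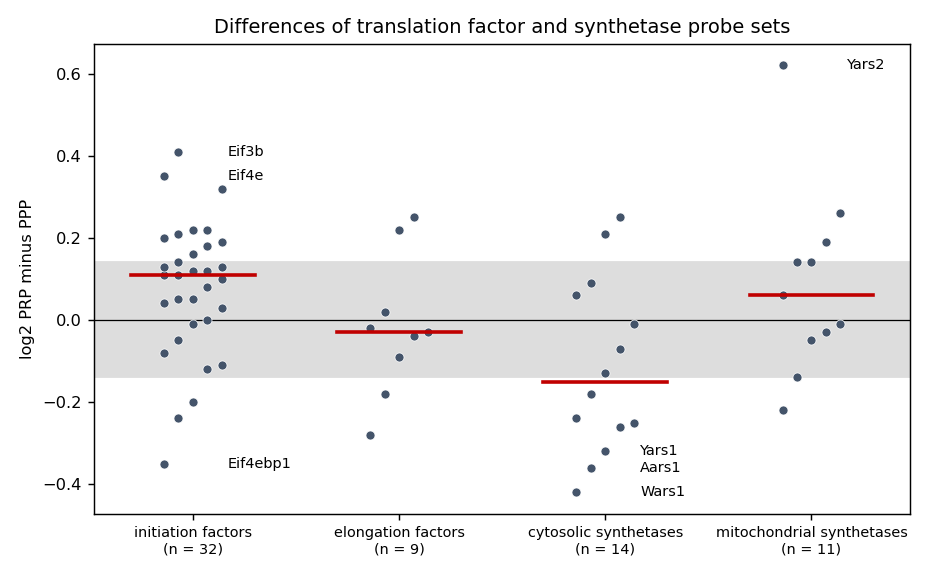
Each point is the log2 PRP minus PPP difference of 1 probe set of a translation factor or synthetase, grouped by class; red lines are class medians and the grey band holds the middle 50% of all 14824 tested probe sets (-0.14 to 0.14). Names mark unadjusted p under 0.05; the median is 0.11 for initiation factors and -0.15 for cytosolic synthetases.

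Among the cytosolic synthetases, 10 of 14 probe sets had negative differences, as did 50.7% of all probe sets. Their median was -0.15 beside -0.003 for all tested probe sets, and 0 passed the test. The PRP arrays lay below both PPP arrays in 9 of 14 and above them in 4. Of all probe sets, 22.5% lay apart in the lower direction and 23.9% in the higher one. All 14 lay at or above the median level, where 57.8% of probe sets were apart either way. The median of the class was 8.01 and 8.02 on the PPP arrays and 7.80 and 7.82 on the PRP arrays, with a pooled SD between arrays of a group of 0.013. Such medians of levels do not follow the median difference in every class: those of initiation factors were 8.38 and 8.47 with PPP and 8.32 and 8.36 with PRP (SD 0.047), although most of their differences were positive. The SD was 0.124 for elongation factors and 0.101 for mitochondrial synthetases.

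Wars1, the tryptophan enzyme, which is also known as an interferon-induced gene in human cells, had log2 values of 7.40 and 7.28 with PPP and 6.98 and 6.86 with PRP. Both PRP arrays were below both PPP arrays. The difference was -0.42 (SE 0.11), a 1.33-fold lower level with PRP, and the adjusted p was 0.168 by limma (0.0397 with an intensity trend). Aars1, the alanine enzyme, read 7.97 and 8.04 with PPP and 7.66 and 7.63 with PRP. The groups were apart by more than either pair spread, at -0.36 (SE 0.11), with an adjusted p of 0.193 by limma (0.0340 with an intensity trend). Yars1, the tyrosine enzyme, read 8.05 and 7.89 with PPP and 7.63 and 7.67 with PRP. Its PRP values were again the lower ones, at -0.32 (SE 0.11), with an adjusted p of 0.248 by limma.

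The enzymes for leucine, isoleucine and asparagine sat close together, at -0.26 for Lars1, -0.25 for Iars1 and -0.24 for Nars1. Lars1 read 8.30 and 8.11 with PPP against 7.91 and 7.97 with PRP. Iars1 read 7.97 and 7.95 against 7.68 and 7.75. Nars1 read 9.53 and 9.43 against 9.23 and 9.26. PRP lay below PPP without overlap for these 3 enzymes, and their adjusted p lay between 0.327 and 0.353 by limma. Gars1, the glycine enzyme, and Mars1, the methionine enzyme, had differences of -0.18 and -0.13. Kars1, the lysine enzyme, and Rars1, the arginine enzyme, had -0.07 and -0.01.

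The other 4 cytosolic enzymes had positive differences. Vars1, which charges valine, read 6.11 and 5.90 with PPP and 6.37 and 6.15 with PRP, a difference of 0.25 (SE 0.14). Its 2 arrays within a product lay nearly as far apart as the products did, and the difference was 0.150 without PPP replicate 2 and 0.142 without PRP replicate 1, below that of Hars1 in the same fits (0.243 and 0.233). Hars1, the histidine enzyme, read 8.27 and 8.34 with PPP and 8.48 and 8.54 with PRP, a difference of 0.21 (SE 0.11, adjusted p 0.410 by limma). Tars1, the threonine enzyme, was at 0.09 and Qars1, the glutamine enzyme, at 0.06.

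**Figure D2:**
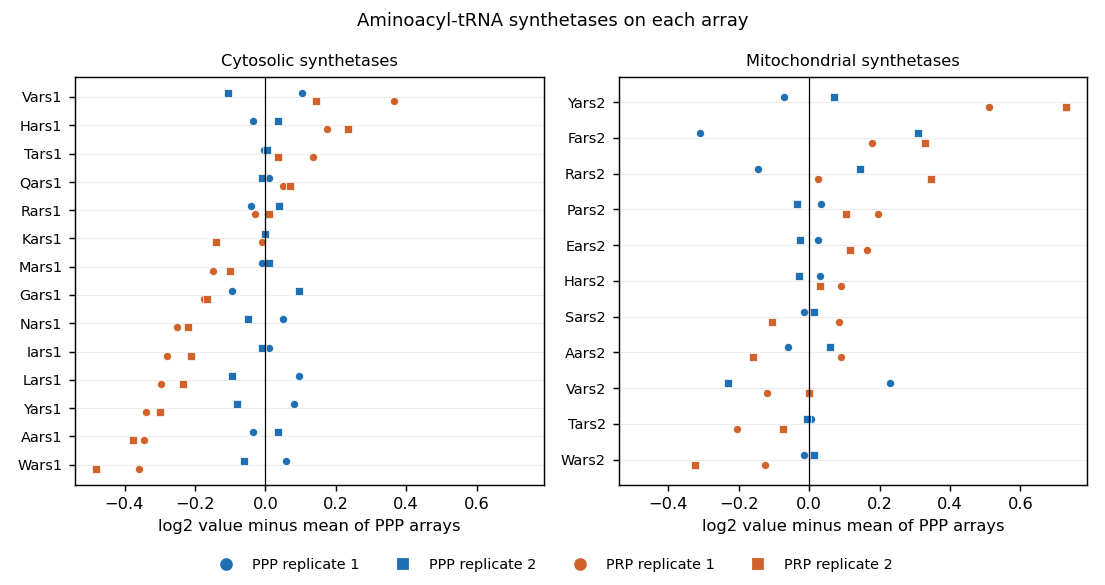
Each row is a synthetase gene and each marker 1 array, plotted as its log2 value minus the mean of the 2 PPP arrays (blue PPP, orange PRP; circles replicate 1, squares replicate 2). The lower cytosolic rows, Wars1 to Mars1, show both PRP arrays left of both PPP arrays, while among the mitochondrial enzymes Yars2 stands to the right.

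The mitochondrial synthetases had a median difference of 0.06 (0.032 to 0.092 with 1 array left out), with differences from -0.22 to 0.62; 6 of 11 were positive and 0 passed. Their probe set means ran from 3.55 to 5.97, and 4 of 11 lay below the median of all tested probe sets. Yars2, which charges mitochondrial tyrosine tRNA, had the smallest p of all 67 members. It read 4.70 and 4.84 with PPP and 5.28 and 5.50 with PRP. Both PRP arrays were higher, by 0.62 (SE 0.13) or 1.53-fold, with an adjusted p of 0.0944 by limma. It was called with an intensity trend (0.0427) and with dim probe sets left out (0.0305), where 8.77% of 7412 probe sets and 2 of 59 members were. Yars2 and its cytosolic counterpart Yars1 thus lay on opposite sides of 0.

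Fars2, the phenylalanine enzyme, read 5.53 and 6.15 with PPP and 6.02 and 6.17 with PRP, and its difference of 0.26 turned to -0.055 without PPP replicate 1. Wars2, the tryptophan enzyme, read 4.60 and 4.63 with PPP and 4.49 and 4.29 with PRP, a difference of -0.22 (SE 0.12). Tars2, the threonine enzyme, read 5.73 and 5.72 with PPP and 5.52 and 5.65 with PRP, a difference of -0.14. The PRP arrays were the lower ones in both. Pars2, Ears2 and Hars2, for proline, glutamate and histidine, were at 0.14, 0.14 and 0.06, and in each the PRP arrays were the higher ones. Rars2, for arginine, was at 0.19, with arrays of the products overlapping. Vars2, Aars2 and Sars2 were at -0.05, -0.03 and -0.01. Each of them changed sign in some fit with 1 array left out, and Vars2 was at 0.178 without PPP replicate 1.

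Initiation factors tended to slightly positive differences: 24 of 32 probe sets, with a median of 0.11, beside 49.3% of all probe sets. The median difference was -0.003 over all probe sets and 0.045 over the 7412 at or above the median level. Against the latter, the class median stood only 0.07 higher. None of the 32 passed. The PRP arrays were above both PPP arrays in 17 and below them in 5, against 23.9% and 22.5% of all probe sets, and 30 of 32 lay at or above the median level, where 57.8% of probe sets were apart either way.

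Among the factors that act first, eIF1 to eIF3, 12 of 16 differences were positive. Eif3b, a scaffold subunit of eIF3, the complex that holds the small ribosomal subunit and recruits the message, had the smallest p of the group. Its log2 values were 7.09 and 7.10 with PPP and 7.49 and 7.51 with PRP. The pairs were nearly identical within a product, and the difference was 0.41 (SE 0.10), 1.33-fold, with an adjusted p of 0.139 by limma (0.0248 with an intensity trend and 0.0411 with dim probe sets left out). The other eIF3 subunits did not share that size. Eif3h and Eif3d were at 0.22 and 0.19, Eif3j and Eif3m at 0.11 and 0.10, Eif3a at 0.05 and Eif3c at -0.05.

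The eIF2 complex brings the initiator tRNA, and eIF2B reloads it with GTP. Eif2s1, its alpha subunit, where stress kinases phosphorylate it, read 8.46 and 8.52 with PPP and 8.66 and 8.76 with PRP, a difference of 0.22 (SE 0.11). Eif2s2, the beta subunit, was at -0.08. Of the eIF2B subunits, Eif2b2 read 7.78 and 7.89 with PPP and 7.58 and 7.61 with PRP. Both PRP arrays were below both PPP arrays, at a difference of -0.24 (SE 0.11), while Eif2b1 and Eif2b5 were at 0.14 and 0.13. Subunits of the same complex therefore lay on both sides of 0, and none of them passed. Eif1a, which takes part in scanning, read 8.20 and 8.16 with PPP and 7.91 and 8.05 with PRP, a difference of -0.20. Its relative Eif1ax was at 0.08, and Eif1b, a form of eIF1, at 0.03. Eif1ad, an eIF1A-like protein, had a difference of 0.32, but its PPP arrays read 6.02 and 6.54 and its PRP arrays 6.59 and 6.61; without PPP replicate 1 the difference was 0.056.

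At the cap-binding step, the highest and lowest differences of the eIF4 group with all arrays belonged to a factor and its inhibitor. Eif4e, the protein that binds the cap, read 8.31 and 8.46 with PPP and 8.71 and 8.76 with PRP. All PRP values were higher, by 0.35 (SE 0.11) or 1.27-fold, with an adjusted p of 0.224 by limma (0.0361 with an intensity trend). Eif4ebp1, which sequesters eIF4E when mTOR is inactive, read 8.55 and 8.60 with PPP and 8.27 and 8.18 with PRP. All PRP values were lower, at -0.35 (SE 0.11) or 1.27-fold, with an adjusted p of 0.207 by limma (0.0283 with an intensity trend). Its relatives Eif4ebp2 and Eif4ebp3 were at 0.12 and -0.01. The ranking depended on single arrays. Without PPP replicate 2, Eif4e3 (0.515) was above Eif4e (0.425) and Eif4e1b (-0.425) was below Eif4ebp1 (-0.322). Without PRP replicate 2, Eif4e1b (-0.370) was again below Eif4ebp1 (-0.307).

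Apart from Eif4e3 and Eif4e1b, the rest of the eIF4 group lay from 0.04 to 0.20, around the group's median of 0.12. The 2 probe sets of Eif4a1, the helicase that unwinds messages, gave 0.12 and 0.20. The first read 9.90 and 9.86 with PPP and 10.00 and 9.99 with PRP, and the second 9.28 and 9.59 against 9.68 and 9.58. Without PPP replicate 1 the second was at 0.043. The scaffold Eif4g1 was at 0.04 and the second helicase Eif4a2 at 0.05. The helicase cofactors Eif4b and Eif4h were at 0.13 and 0.16, and Eif4enif1, which carries eIF4E into the nucleus, at 0.11. Eif4e3, a relative of eIF4E, read 3.41 and 4.02 with PPP and 3.90 and 3.94 with PRP. Eif4e1b, another, read 3.74 and 3.11 against 3.06 and 3.58. In both the products overlapped, and their differences of 0.21 and -0.11 changed sign without PPP replicate 1. Eif5b, which joins the ribosomal subunits, read 8.70 and 8.77 with PPP and 8.88 and 8.95 with PRP, a difference of 0.18 with PRP higher on both arrays. Eif5a, which helps the ribosome past difficult stretches, read 8.47 and 8.48 against 8.32 and 8.38, a difference of -0.12. Its relative Eif5a2 overlapped between the products, at 5.65 and 5.67 against 5.60 and 5.72 (difference 0.00).

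**Figure D3:**
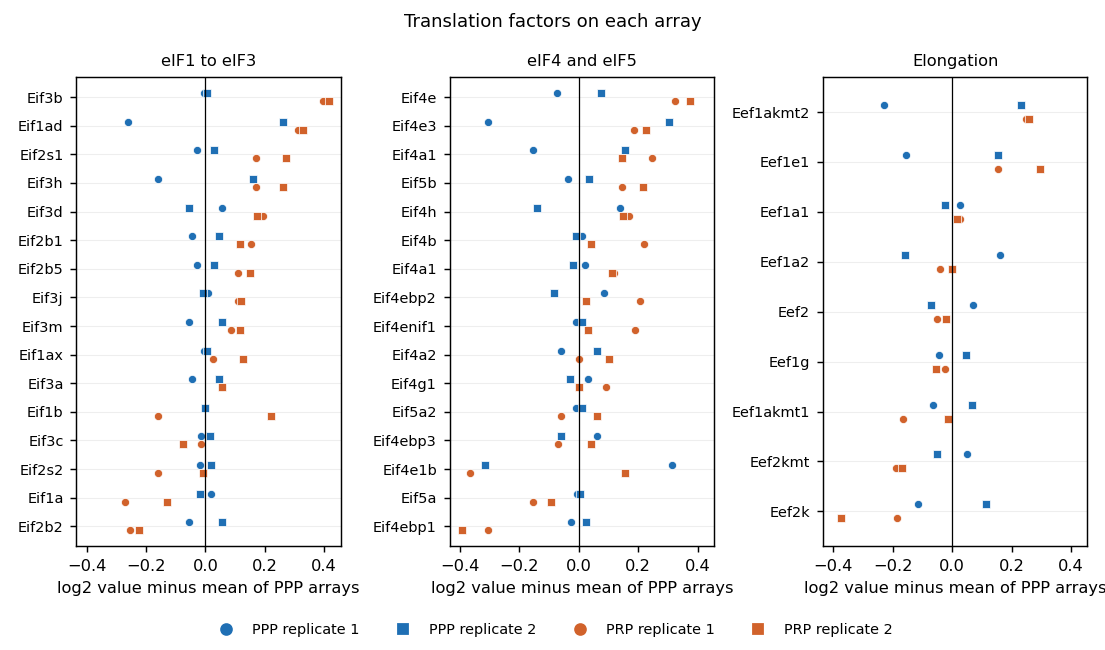
Each row is a probe set of a translation factor and each marker 1 array, as log2 value minus the mean of the 2 PPP arrays (blue PPP, orange PRP; circles replicate 1, squares replicate 2). Eif3b and Eif4e sit at the top of the initiation factors and Eif4ebp1 at the bottom, and Eef1a1, Eef1g and Eef2 stay within 0.15 of 0 on every array.

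The window of Eif4e held the E-box CACGTG at 2 places, and that of Eif3b held it once. These stretches are shown because they belong to the factors with the highest levels under PRP relative to PPP.
Eif4e, distal: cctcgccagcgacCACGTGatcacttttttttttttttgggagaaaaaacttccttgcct
Eif4e, proximal: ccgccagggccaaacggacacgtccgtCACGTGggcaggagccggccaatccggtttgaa
Eif3b: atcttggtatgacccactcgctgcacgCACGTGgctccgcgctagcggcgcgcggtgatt
The capitals mark the E-box, which reads the same on both strands and is known in human and mouse cells as the site of Myc and its partners. The stretches lie at chr2:229740503-229740562 (plus strand), chr2:229740646-229740705 (plus strand) and chr12:19334793-19334852 (minus strand). The E-box was present in the windows of 10 of 36 factor genes and 4 of 12 cytosolic synthetase genes, against 7.96% of tested genes. The 8 initiation factor genes with it had a median difference of 0.04, and the 19 with a window but without it had 0.11.

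The core elongation factors had differences close to 0, and 0 of 9 probe sets of the class passed (median difference -0.03, with 3 positive and 6 negative). Eef1a1, which delivers charged tRNAs to the ribosome, read 11.21 and 11.16 with PPP and 11.21 and 11.20 with PRP. Eef1g, a subunit of the complex that recycles eEF1A, read 10.58 and 10.67 against 10.60 and 10.57. Eef2, which moves the ribosome by a codon, read 9.98 and 9.84 against 9.86 and 9.89. In these 3 the arrays of the products overlapped, and the differences were 0.02, -0.04 and -0.03, with 95% intervals within -0.31 and 0.28.

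Eef2k, the kinase that inactivates eEF2, had the most negative difference of the elongation class at -0.28 (SE 0.14). It read 6.38 and 6.61 with PPP and 6.31 and 6.12 with PRP, with PRP lower on both arrays. Without PPP replicate 2 or PRP replicate 2 it was at -0.162 and -0.181, and Eef2kmt was then more negative (-0.234 and -0.188). The methyltransferase gene Eef2kmt read 4.45 and 4.35 with PPP and 4.21 and 4.23 with PRP, a difference of -0.18, and Eef1akmt1, one of the eEF1A lysine methyltransferases, at -0.09. Eef1akmt2, another, read 6.34 and 6.80 with PPP and 6.82 and 6.83 with PRP, a difference of 0.25. Eef1e1, which also belongs to the multi-synthetase complex, read 7.30 and 7.61 with PPP and 7.61 and 7.75 with PRP, a difference of 0.22. For both of these PPP replicate 1 stood below the other 3 arrays, and without it the differences were 0.020 and 0.064. Eef1a2, the form of muscle and nerve, was dim at 3.54 with PPP and 3.52 with PRP, and the pseudogene Eef1a1-ps7 was at 3.53 and 3.54.

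Among other genes of translation, 32 of 46 listed were measured and 0 passed, beside 1.85% of all probe sets. The median difference was 0.12, and 25 of 32 were under 0.25 in size. All 7 genes of poly(A) binding and termination had positive differences, as did 49.3% of all probe sets. They ran from 0.09 for Abce1, the ribosome recycling factor, to 0.65 for Gspt2, a form of the release factor eRF3. The whole list lay at or above the median level, where the median difference over 7412 probe sets was 0.045. Gspt2 read 4.10 and 3.96 with PPP and 4.62 and 4.74 with PRP. Its adjusted p was 0.0647 by limma. It was called by limma with dim probe sets left out (0.0184), where 8.77% of 7412 probe sets were. The same held with an intensity trend (0.046), where 5.45% of all probe sets were called, after median centring (0.0329) and after cyclic loess (0.0435). Gspt2 was not called with a replicate block (0.155), with all probe sets tested (0.275) or with any 1 array left out. Mitochondrial factors had a median of 0.23, with Mtrf1l, a mitochondrial release factor, at 0.41 and Gfm1, a mitochondrial elongation factor, at 0.27. Among 13 regulators of eIF2, eIF4E and eEF2, Rps6kb2, an S6 kinase downstream of mTOR, read 6.34 and 6.27 with PPP and 5.92 and 5.87 with PRP, a difference of -0.41 (SE 0.11, adjusted p 0.145 by limma) and passed with dim probe sets left out (0.0440). Mtor, Rptor, Tsc1 and Tsc2 lay between -0.01 and 0.11. The eIF2 kinases were at -0.29 for Eif2ak3, -0.07 for Eif2ak1 and 0.21 for Eif2ak4. Farsa and Farsb, the subunits of the cytosolic phenylalanine enzyme, whose symbols fall outside the choice above, were at 0.27 and 0.00.

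Genes of the ATF4 amino acid response, measured on the same arrays, had mostly negative differences, and 5 passed the test. Of 29 genes listed, 24 were measured by 25 probe sets. The list was chosen with earlier results of these data known, so its counts are a description only. limma called 4 lower and 1 higher with PRP, beside 1.02% and 0.830% of all probe sets. The median difference was -0.40, beside -0.15 for the cytosolic synthetases and -0.003 for all probe sets, and 24 of 25 differences were negative. The 4 lower ones were Trib3, Chac1, Slc7a11 and Vldlr.

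Trib3, a pseudokinase that ATF4 induces and that restrains it, read 5.95 and 6.15 with PPP and 4.17 and 4.41 with PRP. It was lower on both PRP arrays (difference -1.76, SE 0.14, adjusted p 0.00502 by limma), or 3.38-fold. Chac1, an enzyme that degrades glutathione, read 7.60 and 7.29 with PPP and 6.13 and 5.85 with PRP, with a difference of -1.46 (SE 0.16). Slc7a11, the cystine transporter, read 5.19 and 4.99 against 3.98 and 4.05, a difference of -1.07. Vldlr, a lipoprotein receptor, read 6.60 and 6.76 against 5.58 and 5.68, a difference of -1.05. In all 4 both PRP arrays were lower. The one called higher with PRP was Cebpb, a partner of ATF4 that inflammatory signals also induce in many cells. It read 3.90 and 3.82 with PPP and 4.78 and 4.58 with PRP, a difference of 0.82 (SE 0.12). The calls of Slc7a11, Vldlr and Cebpb were lost whichever array was left out (adjusted p up to 0.118, 0.119 and 0.238), Chac1 without either PPP array or PRP replicate 2 (0.0963, 0.0580 and 0.0890), and Trib3 without PPP replicate 2 (0.0522). With 1 array left out, 0 to 2 of the 25 were called, and all 5 calls were lost with all 36685 probe sets tested (adjusted p from 0.105 to 0.230).

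Members of the list that did not pass included Atf4 itself, at -0.28 (SE 0.12), and Ddit3, the stress factor CHOP, at -0.48 (SE 0.11). Pck2, mitochondrial phosphoenolpyruvate carboxykinase, was at -0.68 with an adjusted p of 0.0582 by limma, and Nupr1, a stress-induced chromatin protein, at -0.61 with 0.0617. Among the transporters Slc7a5 and Slc3a2, the subunits of a carrier of leucine and other large amino acids, were at -0.53 and -0.38. The enzymes Mthfd2, Aldh18a1 and Psph, of folate, proline and serine metabolism, had differences from -0.40 to -0.22, with -0.40 and -0.31 for the 2 probe sets of Mthfd2. With an intensity trend 11 of the 25 were called lower and 1 higher, beside 2.46% and 3.00% of all probe sets.

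**Figure D4:**
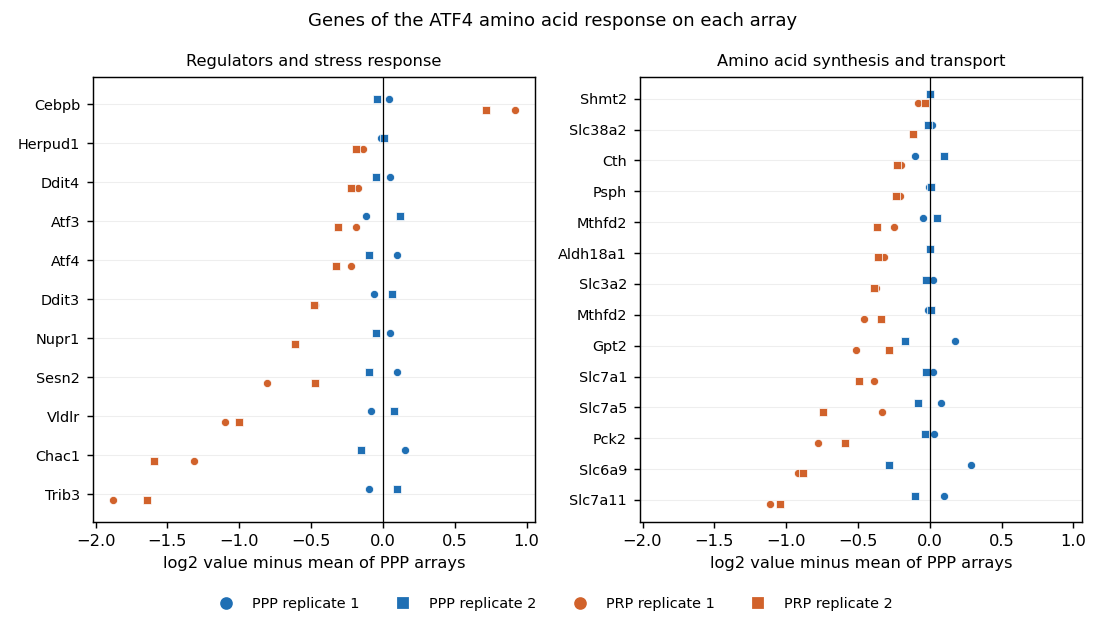
Each row is a probe set of the ATF4 amino acid response list and each marker 1 array, as log2 value minus the mean of the 2 PPP arrays (blue PPP, orange PRP; circles replicate 1, squares replicate 2). Both PRP arrays lie left of both PPP arrays in all rows but that of Cebpb, which lies to the right. Of all 14824 probe sets, 22.5% lay apart in the lower direction and 23.9% in the higher one. Among probe sets at or above the median level, 57.8% were apart either way. Trib3 and Chac1 lie farthest left.

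The C/EBP-ATF core was also found in the windows of 6 of 22 genes of this list. Those of Trib3 and Chac1 are shown because these genes had the most negative differences of the list.
Trib3: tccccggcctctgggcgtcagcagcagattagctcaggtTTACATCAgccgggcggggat
Chac1: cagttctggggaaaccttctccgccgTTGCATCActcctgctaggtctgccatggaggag
Both read on the gene's strand, with the core in capitals, at chr3:161275534-161275593 (minus strand) and chr3:126795938-126795997 (plus strand). The core began 21 bases before the start in Trib3 and 167 bases before it in Chac1.

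Set beside the values, the 6 cytosolic synthetases whose window held the core, Aars1, Yars1, Iars1, Nars1, Mars1 and Tars1, had a median difference of -0.24, and 5 of 6 were negative. The 6 with a window but without the core had a median of -0.01, with 3 negative. That group held Wars1, the most negative difference of the class, and also Hars1 and Vars1, the most positive ones. Gars1 and Rars1 had no window. Eif2s2, the factor with the core, was at -0.08. In the ATF4 list the genes with the core had a median of -0.64 and those without it -0.34. These are descriptions of small groups, and the motif's part in the differences was not tested.

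**Figure D5:**
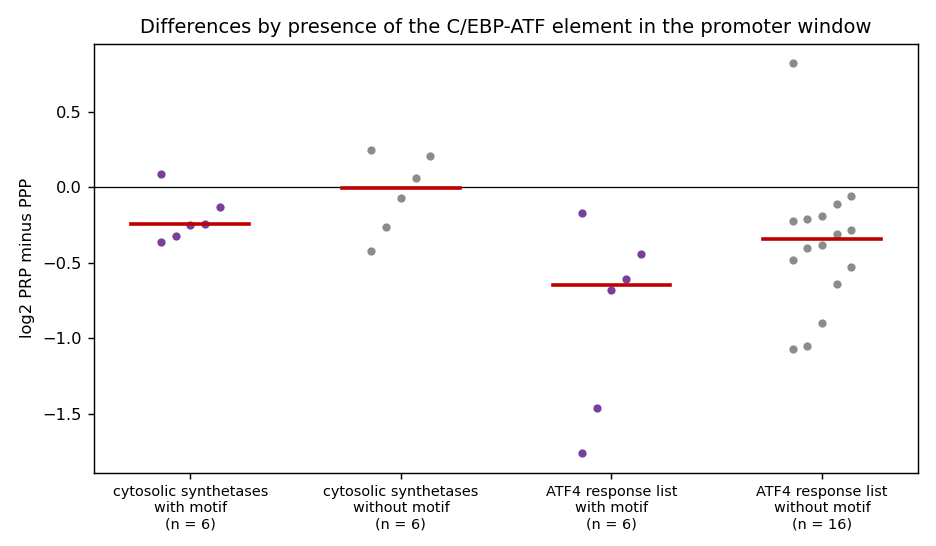
Each point is the log2 PRP minus PPP difference of 1 gene, for cytosolic synthetases and for the ATF4 response list, split by whether the promoter window holds the core TGATGNAA on either strand; red lines are medians. The medians are -0.24 and -0.01 for synthetases with and without it, and the ranges overlap.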

How the data were processed

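Gene expression was measured on 4 Affymetrix arrays, 2 per plasma product, per the labels' protocols from 15 ng of RNA, amplified, with 3 ug of the cDNA labelled. The authors deposited log2 values for 36685 probe sets; the submitters' processing notes name oligo, RMA and limma, with no version. RMA makes the arrays' distributions alike (sorted values differed by at most 0.304), so a change in total RNA per cell would not show. No detection calls were used here, and values of different probe sets are not comparable. The genome build behind the array is not given in the sources used here. Names came from GEO's platform table: 14824 probe sets had 1 symbol, 829 several and 21032 none, and all 67 members matched the RefSeq gene table.

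The products were compared in R 4.3.3 with limma 3.58.1 (lmFit, eBayes without trend, two-sided, no dim filter) over the 14824, with Benjamini-Hochberg adjustment over all of them. There were 2 residual and 3.87 prior degrees of freedom. SE and 95% intervals are limma's moderated ones, the intervals not adjusted. The script was tested on simulated data. The number of arrays limits the precision: an exact permutation test of 2 against 2 cannot go below p = 0.333. Alternatives were an intensity trend, a replicate block, other scalings, other probe set filters, 1 probe set per gene and each array left out. Genes described with full values are the members past the threshold (there were 0), the 2 highest and 2 lowest of each role group, that with the smallest p, members with several probe sets, and neighbours needed to describe a group. In each related list they are the called genes and the 2 with the smallest p, with further genes chosen after their values were seen. The members and lists were chosen with earlier results of these data known. Where a gene had several probe sets, the motif comparison used the one with the highest mean.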

Additional observations from a re-analysis of the deposited data

How the results depend on the processing

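The count of called members was 0 as reported, with a replicate block, with all 36685 probe sets tested, after median centring or cyclic loess, with 1 probe set per gene and with any 1 array left out. It was 6 with an intensity trend (3 initiation factors, 2 cytosolic and 1 mitochondrial synthetase) and 2 of the 59 tested with dim probe sets left out (1 initiation factor and 1 mitochondrial synthetase). Over all probe sets, calls numbered 274 as reported, 808 with a trend, 123 with the replicate block, 650 of the 7412 tested with dim probe sets left out, 2 with all probe sets tested, and 56 to 81 with 1 array left out, in fits with 1 residual degree of freedom. In the ATF4 list, calls numbered 12 with a trend, 10 with dim probe sets left out, 3 with the replicate block, 0 with all probe sets and 0 to 2 with 1 array left out. In the other translation list they numbered 1 with a trend, 2 with dim probe sets left out, 1 after median centring and 1 after cyclic loess.

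The median of cytosolic synthetases was -0.153 as reported, -0.116 after median centring, -0.200 after cyclic loess and -0.168 to -0.100 with 1 array left out. That of initiation factors was 0.110, 0.061 after cyclic loess and 0.063 to 0.114 with 1 array left out. The medians of these classes kept their sign throughout. That of mitochondrial synthetases ran from 0.032 to 0.092 and that of elongation factors ran from -0.041 to 0.020 with 1 array left out. With 1 array left out, 17 of the 67 members changed sign in at least 1 fit, 14 of them with differences under 0.06 in size as reported. The larger ones changed sign without PPP replicate 1, namely Eif4e1b (0.208, and -0.425 without PPP replicate 2), Eif4e3 (-0.099 and 0.515) and Fars2 (-0.055 and 0.566), as did Eif5a2 (-0.007). Eif5a2 also did so with cyclic loess (-0.057) or without PRP replicate 2 (-0.057), and Eif4e1b without PRP replicate 1 (0.153). The cause of these shifts was not tested, beyond the fewer arrays or other probe sets in each fit. Replicate numbers are shared between the products, but deviations of same-numbered arrays correlated at r = 0.00564 over 14824 probe sets, so the numbers are not taken as pairs.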
